A study of Mus musculus with 10 samples.

Results

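The genes described here are the translation initiation and elongation factors, chosen as every gene symbol that begins with Eif and a digit from 1 to 6 or with Eef and 1 or 2. The rule found 62 of the 18292 symbols in the deposited tables, and it used no measured value. The tables hold single cell RNA-seq of microglia, the resident macrophages of the brain, sorted by FACS as live CD11b high, CD45 intermediate cells from C57BL/6 mice. The 5 groups were adult microglia, taken fresh from brains of mice aged 10 to 15 weeks, *in vitro* microglia from mixed glial cultures of neonatal cortex, collected after 3 weeks, and microglia from coronal brain slices of mice at postnatal day 1 to 4 that had been cultured for 1 day, 1 week or 3 weeks. No group was given a treatment or carried a transgene in the labels, and slices could be pooled for a sample. By the study's methods, human PDGF was added to the slice medium at each change, and the mixed glial cultures had another medium. Each group had 2 libraries, numbered 1 and 2, which the study calls independent samples. In each slice group the Y-linked factor Eif2s3y had UMIs in 1 library and 0 in the other, so these pairs did not come from a single pool of animals. For the adult and *in vitro* pairs nothing more is said of animals or cultures, and there part of the spread behind the p-values may be technical. The culture groups differ from the adult group in the age of the donor mice as well as in culture, and these cannot be told apart. Donor sex differed as well, since Eif2s3y had 1 and 0 UMIs in the adult libraries and 926 and 633 *in vitro*, so between adult and *in vitro* it cannot be told apart from culture either.

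Initiation factors assemble the small ribosomal subunit with the initiator tRNA, recruit it to the cap of an mRNA and place it at the start codon, where the large subunit joins, and elongation factors bring each aminoacyl-tRNA and move the ribosome along. Their amounts must serve the ribosomes of a cell, and many growing cells raise both together. mRNAs of ribosomal proteins and of several of these factors begin with a C and a run of pyrimidines, the 5′ terminal oligopyrimidine tract, through which the kinase complex mTORC1 and the RNA-binding protein LARP1 control their translation and stability. In the same libraries the mRNAs of the cytosolic ribosomal proteins were nearly all higher in the cultures than in adult microglia, and the question addressed here was which of the translation factors followed them.

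After removal of cells past the study's limits on mitochondrial share, genes and UMIs, 19059 cells in 10 libraries were summed to 1 count of unique molecular identifiers (UMIs) per gene and library. The study also discriminated outliers by t-SNE, which was not done here. It counts fewer microglia at slice 1 week than the 148 and 61 cells kept, so the sums can hold cells that the study left out. Libraries held 61 to 3799 cells and 385373 to 39689540 UMIs, with the fewest at slice 1 week. A median adult cell held 3257 and 1858 UMIs, a median *in vitro* cell 12858 and 13966, and a median slice cell 5266 to 8335. Pairs of libraries shared at most 23 cell barcodes. The 7 microglia markers used for the check (P2ry12, Tmem119, Cx3cr1, Csf1r, Fcrls, Sall1 and Siglech) all had UMIs in every library, and their summed level was 20971 and 21472 CPM (UMI counts scaled to a common library total) in adult, 3108 and 2473 for *in vitro*, 2616 and 2327 for 1 day, 4033 and 4510 for 1 week, and 6318 and 4378 at 3 weeks. Neutrophil markers reached 7570 and 21927 CPM at 1 day, 39335 and 955 CPM at 1 week and at most 7.99 CPM in the other groups. Erythroid markers were at 1846 CPM in adult replicate 1 and 3460 CPM in slice 1 day replicate 1, and border macrophage markers at 2226 and 2096 CPM in the *in vitro* libraries, 286 and 241 CPM at 1 day, 28.5 to 180.4 CPM in the other slice libraries and 9.85 and 5.59 CPM in adult. Monocyte markers were at 147 and 176 CPM at 1 day, 146 CPM in slice 1 week replicate 1, and at most 7.1 CPM elsewhere. Astrocyte markers were higher in adult, at 152 and 148 CPM, than in the 8 culture libraries, at 3.88 to 33.8 CPM. Cells with at least 2 UMIs of cell cycle markers made up 0.395% and 0.255% of adult cells, 21.1% and 29.1% *in vitro*, 15.8% and 31.0% for 1 day, 15.5% and 19.7% for 1 week, and 19.2% and 8.26% at 3 weeks. The part of these in the results was not tested, and the counts without such cells are given beside them.

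The 62 factors together took a larger share of the UMIs in each culture than in adult microglia, with the peak at 1 day of slice culture. Replicates 1 and 2 of the adult group gave them 0.933% and 0.902% of UMIs, against 1.18% and 1.22% for *in vitro*, 1.70% and 1.75% for 1 day, 1.32% and 1.40% for 1 week, and 1.23% and 1.43% at 3 weeks. All 8 culture libraries lay above both adult libraries, and the 1 day libraries lay above all others. The 80 cytosolic ribosomal protein genes took 7.05% and 5.70% of adult UMIs, 12.2% and 13.0% for *in vitro*, 16.1% and 16.0% for 1 day, 15.2% and 16.4% for 1 week, and 13.9% and 20.3% at 3 weeks. The ribosomal share of the slice libraries at 1 week and 3 weeks lay on both sides of that at 1 day, where the factor share of all 4 lay below it. For every 100 ribosomal protein UMIs there were 13.2 and 15.8 factor UMIs in adult, 9.67 and 9.39 for *in vitro*, 10.6 and 10.9 for 1 day, 8.68 and 8.51 for 1 week, and 8.84 and 7.06 at 3 weeks. The ratio was lower in all 8 culture libraries than in both adult libraries. Without Eef1a1, which took the most UMIs of the factors in every culture library, the share was 0.772% and 0.790% in adult, 1.41% and 1.47% at 1 day and 0.963% and 1.06% at 3 weeks. With 2 libraries against 2, the smallest two-sided exact permutation p is 0.333, so no test of these shares was made. In cells thinned to 1800 UMIs each, which leaves out shallower cells, the share was 0.935% and 0.915% in adult and 1.57% and 1.68% at 1 day, so the order of these groups was as in the unthinned counts.

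**Figure D1:**
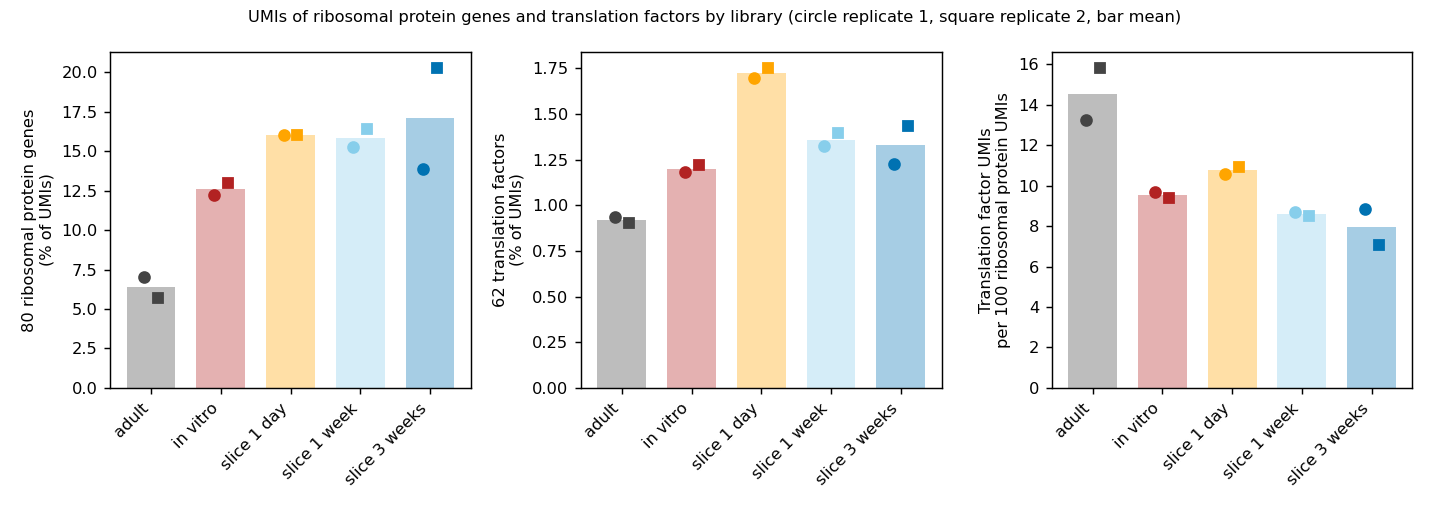
Share of all UMIs taken by the 80 ribosomal protein genes (left, %), share taken by the 62 translation factors (middle, %) and factor UMIs per 100 ribosomal protein UMIs (right), by group. Points are libraries and bars are means of the 2 libraries. The factor share peaked at 1.70% and 1.75% in the slice 1 day libraries, while the ratio to ribosomal protein UMIs was highest in the adult libraries, at 13.2 and 15.8.

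For each gene, the summed counts were compared with edgeR's quasi-likelihood test in 1 model of the 5 groups over 12157 genes, and a gene was called at an adjusted p under 0.05 with a fold change over 1.5. Levels are CPM after TMM scaling of the library totals. The libraries count 3′ ends, so levels were not divided by gene length and are compared between groups and not between genes. Of the 62 factors, 61 passed the filter on low counts. Eef1a2, the elongation factor of neurons and muscle, did not, with 16 UMIs in all: 3 in *in vitro* replicate 2, 2 in slice 1 day replicate 2, 8 in slice 1 week replicate 1 and 3 in slice 3 weeks replicate 2. The 4 comparisons with adult share the same 2 adult libraries.

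In *in vitro* microglia, 24 of the 61 factors were higher than in adult, where 22.4% of all genes tested were called higher, and 4 were lower, where 28.5% of all genes were. The median log2 fold change of the factors was 0.39, beside −0.11 for all genes and 1.3 for the 80 ribosomal protein genes, of which 77 were called higher. At slice 1 day, 39 factors were higher (24.9% of all genes) and 4 lower (25.3% of all genes), with a median of 0.92 beside −0.06 for all genes and 1.57 for the ribosomal proteins, of which 78 were called higher. At slice 1 week, 19 factors were higher (15.0% of all genes) and 2 lower (13.6%), and at slice 3 weeks 22 were higher (17.9%) and 1 lower (17.5%). Their medians were 0.39 and 0.29, beside −0.08 and −0.03 for all genes and 1.56 and 1.63 for the ribosomal proteins, all 80 of which were called higher at both times. The share of factors called higher was 63.9% at 1 day and 31.1% to 39.3% in the other 3 groups. Among the calls at 1 day is that of Eif2s3y, a Y-linked gene that was not found in every library, and without it 38 of 60 factors were higher at 1 day, with no change in the other counts.

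The number of calls moved with the scaling and with the cells kept. With the library size alone in place of TMM, 14 factors were higher and 7 lower *in vitro* (16.6% and 38.8% of all genes), 37 and 5 for 1 day (22.4% and 29.5%), 17 and 5 for 1 week (12.5% and 20.6%), and 18 and 5 at 3 weeks (14.0% and 25.2%). That scaling moved the median of all genes by −0.30 *in vitro*, −0.12 at 1 day, −0.22 at 1 week and −0.20 at 3 weeks. Per cell, with no scaling to the library, the median of all genes was 2.04 *in vitro*, 1.49 at 1 day, 1.1 at 1 week and 1.05 at 3 weeks. On that scale 60, 58, 51 and 52 factors were higher, beside 80.3%, 67.9%, 44.0% and 55.9% of all genes, and 0, 1, 0 and 0 lower, beside 4.70%, 3.49%, 1.35% and 2.76%. Without the cells in which neutrophil markers made up at least 5% of UMIs, 41 factors were higher and 4 lower at 1 day, and all 43 calls at 1 day were kept. Without cells with 2 or more UMIs of cell cycle markers, 37 were higher and 3 lower (24.6% and 23.0% of all genes), and 40 of the 43 calls were kept. Without every cell that held 2 or more UMIs of markers of other cell types, no cell of slice 1 day replicate 2 or slice 1 week replicate 1 was left and only 42 and 38 cells of *in vitro*, and in the 8 remaining libraries 19 factors were higher at 1 day (6.89% of all genes) and 6 at 1 week (3.27%), from 1 library each. Cells with 2 or more UMIs of markers of other types made up 100% of slice 1 day replicate 2, where 10.4% of cells passed the neutrophil limit. They made up 98.3% and 98.6% of *in vitro* cells. Whether such cells were of other types was not tested. The slice 3 weeks and adult libraries numbered 1 carry another study label than the other 8. Within each label all 23 factors called at 3 weeks kept their direction, which is no independent check, since the calls were made on these same libraries, and the log2 ratio of Eif2s3x was 0.02 between the libraries numbered 1.

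**Figure D2:**
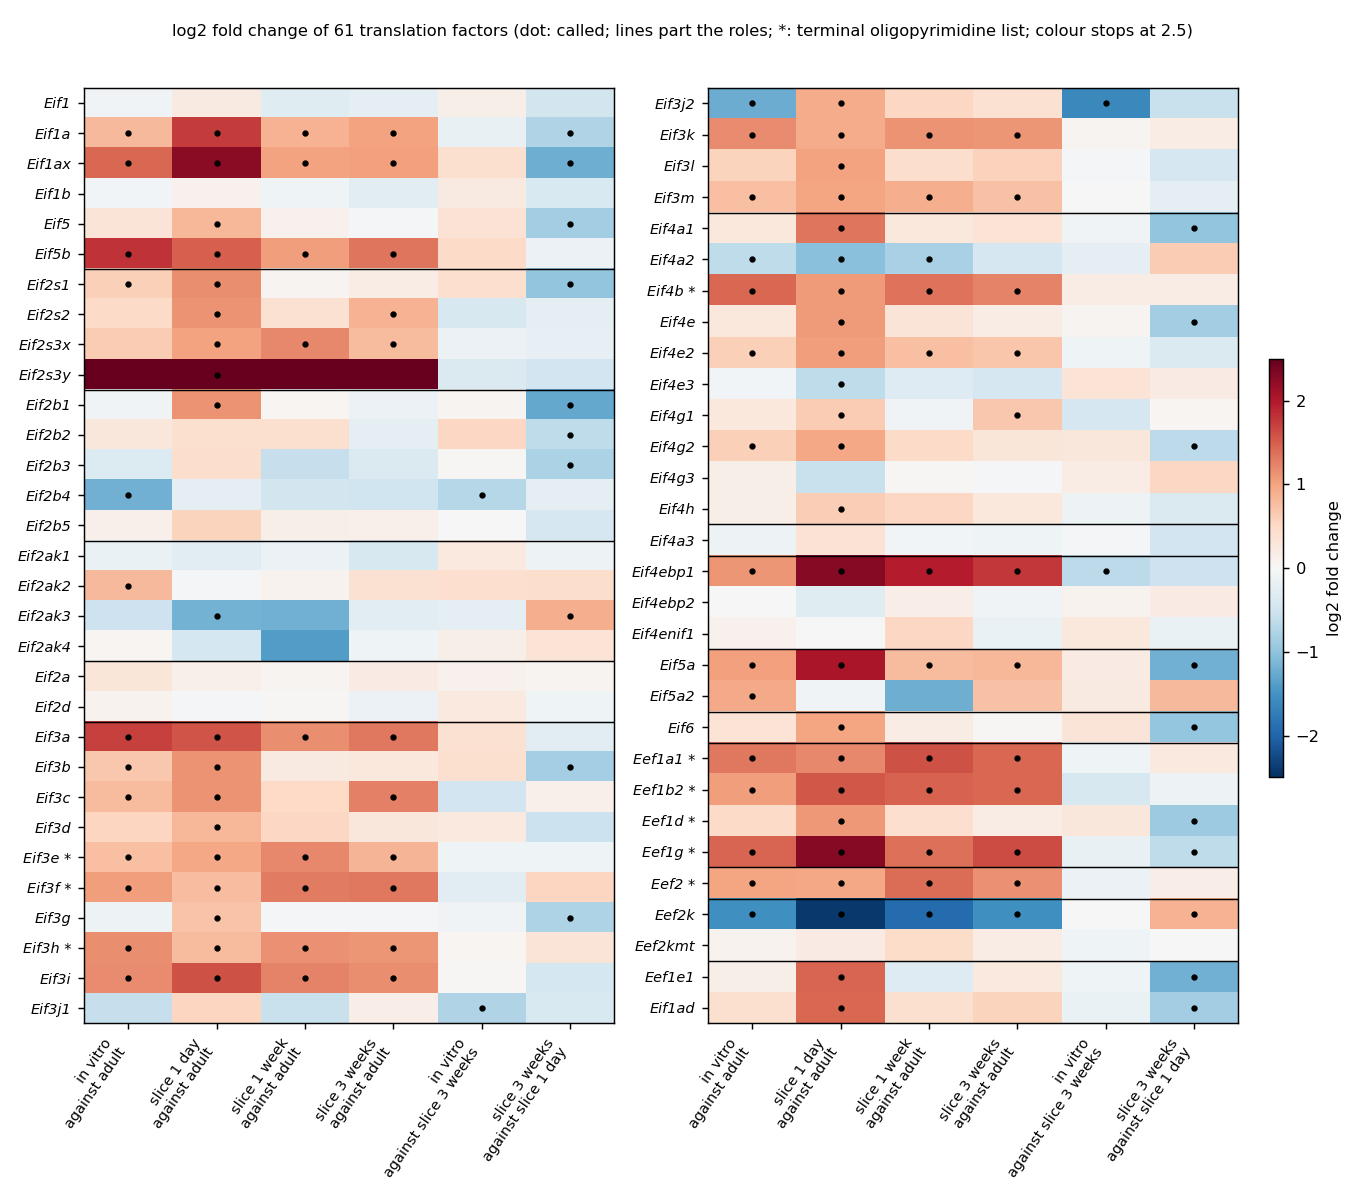
log2 fold change (colour) of the 61 tested factors in rows, grouped by role, for the 6 comparisons in columns. Dots mark calls, asterisks mark the terminal oligopyrimidine list, and the colour scale stops at 2.5, which Eif2s3y exceeds against adult. The column for slice 1 day against adult holds 39 calls higher, and the column for in vitro against slice 3 weeks holds 4 calls in all, each lower.

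The factors were divided by whether their mRNAs are on a list of terminal oligopyrimidine mRNAs written from general knowledge. The list leaves out factors with a tract at an annotated start, Eif2s3x and Eif3l among them. Of the 9 on the list (Eef1a1, Eef1b2, Eef1d, Eef1g, Eef2, Eif3e, Eif3f, Eif3h and Eif4b), 8 were called higher in all 4 comparisons with adult, and Eef1d was called only at 1 day. Of the other 52, 10 were called higher in all 4, and of all 12157 genes 7.86% were, in comparisons that share the adult libraries. Median log2 fold changes of the listed factors were 1.05 *in vitro*, 1.07 at 1 day, 1.36 at 1 week and 1.24 at 3 weeks. Those of the others were 0.27, 0.83, 0.20 and 0.22. The listed factors and the ribosomal proteins had medians over 1 in all 3 slice groups, and the median of the others was highest at 1 day. The list was made with earlier results of these data known, so these counts are a description. With the library size alone, the median of the other factors changed sign *in vitro* (−0.03) and at 1 week (−0.01), where the median of all genes was at −0.42 and −0.30, and the medians of the listed factors remained at 0.74, 0.95, 1.14 and 1.04. Of 7 listed genes that are not factors (Gnb2l1, Hnrnpa1, Nap1l1, Npm1, Pabpc1, Tpt1 and Vim), 6 were higher *in vitro* and all 7 in each slice group (22.4% of all genes *in vitro*, and 24.9%, 15.0% and 17.9% at 1 day, 1 week and 3 weeks), and Pabpc1, the poly(A)-binding protein, was not called *in vitro*.

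**Figure D3:**
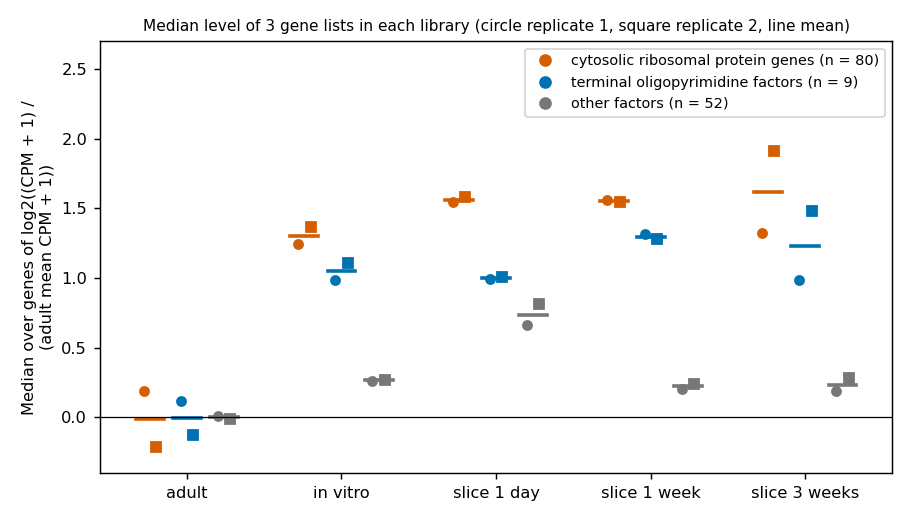
Median over genes of log2((CPM + 1)/(adult mean CPM + 1)) in each library, for the 80 ribosomal protein genes, the 9 factors of the terminal oligopyrimidine list and the 52 other factors. Points are libraries and short lines are group means. The other factors reached 0.66 and 0.81 at 1 day and 0.19 and 0.28 at 3 weeks, while the listed factors stood at 0.99 and 1.01 at 1 day and 0.98 and 1.48 at 3 weeks.

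The sequences at the starts of these genes were read from RefSeq on GRCm38.p6, the assembly of mm10, to see whether the tract lies at the annotated start. A tract was counted where a C followed by at least 4 bases that are each C or T began within 5 bases of the start, on the strand of the gene only. It was found in 19.7% of the 27025 genes with a start in the table, in 28 of 59 matched ribosomal protein genes (47.5%), in 2 of 5 matched factors of the list (40.0%) and in 10 of 45 other factors (22.2%). Annotated starts can differ from those used in a cell, so an absent match says only that these letters are not in this window. Shown are 10 bases before and 20 after the start, with the tract in capitals, for Eif3f of the list (chr7:108934405-108934434, + strand), Eef2 of the list with no tract in the window (chr10:81176621-81176650, + strand), and Eif4a1 and Eif2s3x, which are not on the list, without and with a tract (chr11:69672404-69672433 and chrX:94212632-94212661, both − strand).
Eif3f: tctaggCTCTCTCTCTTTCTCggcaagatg
Eef2: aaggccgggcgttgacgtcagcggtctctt
Eif4a1: gtaacgtcacgtcgagttgcagagcgccgg
Eif2s3x: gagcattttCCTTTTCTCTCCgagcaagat

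Of the 4 tested genes of the eEF1 complex, which delivers aminoacyl-tRNA, 3 were called higher *in vitro*, 4 at 1 day, 3 at 1 week and 3 at 3 weeks, beside 22.4%, 24.9%, 15.0% and 17.9% of all genes. Eef1a1 (mm10 chr9:78478449-78489151) encodes the GTPase that carries aminoacyl-tRNA to the ribosome. Its level was 1464 and 986 CPM in the adult group, 2896 and 3218 for *in vitro*, 2783 and 2813 for 1 day, 3780 and 3654 for 1 week and 2686 and 3912 for 3 weeks. All 8 culture libraries lay above both adult libraries, with a log2 fold change of 1.32 ± 0.22 (SE, edgeR adjusted p = 5.06e-04) *in vitro* and 1.43 ± 0.22 (SE, edgeR adjusted p = 6.26e-04) at 3 weeks. Of the 50-base stretches in the last 300 bases of its annotated transcripts, 69.0% also occur in other annotated genes, 17 in number, so its count is uncertain where reads could not be placed. Eef1b2, a subunit of the exchange factor that recharges it with GTP, stood at 165 and 110.4 CPM in the adult group, 274 and 295 for *in vitro*, 403 and 409.5 for 1 day, 389 and 376 for 1 week and 297 and 449 for 3 weeks. Eef1g, another subunit of that complex, stood at 204 and 181 CPM in the adult group, 495 and 558 for *in vitro*, 866 and 986 for 1 day, 478 and 517 for 1 week and 521 and 670.0 for 3 weeks. Eef1g rose most at 1 day, by 2.27 ± 0.17 (SE, edgeR adjusted p = 4.45e-06) on the log2 scale, and was lower at 3 weeks than at 1 day (log2 fold change −0.64 ± 0.17 SE, edgeR adjusted p = 0.016). The latter call was lost in 7 of 26 alternatives, among them thinned cells and leaving out cycling cells, slice 1 day replicate 2 or slice 3 weeks replicate 1. Eef1d, the third subunit, was called at 1 day alone, at 1.08 ± 0.16 (SE, edgeR adjusted p = 3.10e-04), with 0.47 *in vitro*, 0.43 at 1 week and 0.19 at 3 weeks.

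Eef2 and the kinase that blocks it were called in opposite directions in all 4 cultures on the TMM scale. Eef2 (mm10 chr10:81176631-81182498) encodes the GTPase that moves the ribosome by a codon, and its level was 454 and 384 CPM in the adult group, 812 and 859 for *in vitro*, 804 and 843 for 1 day, 1107 and 1113 for 1 week and 829 and 1029 for 3 weeks. No culture library overlapped the adult libraries, and the log2 fold changes were 1.00 for *in vitro*, 0.97 for 1 day, 1.41 for 1 week and 1.15 for 3 weeks, all called. Eef2k (mm10 chr7:120842831-120907450) encodes the kinase that phosphorylates eEF2 and so slows elongation. It stood at 84.7 and 76.8 CPM in the adult group, 28.7 and 26.9 for *in vitro*, 16.2 and 14.5 for 1 day, 21.7 and 20.5 for 1 week and 26.5 and 29.1 for 3 weeks. Eef2k was the only factor called lower in all 4 comparisons with adult, as 7.31% of all genes were, with log2 fold changes of −1.54 ± 0.13 (SE, edgeR adjusted p = 5.19e-06) *in vitro*, −2.40 ± 0.14 (SE, edgeR adjusted p = 1.45e-06) at 1 day, −1.92 ± 0.19 (SE, edgeR adjusted p = 7.39e-05) at 1 week and −1.53 ± 0.13 (SE, edgeR adjusted p = 2.05e-05) at 3 weeks. It was lowest at 1 day, 5.29-fold under adult, and rose from 1 day to 3 weeks by 0.87 ± 0.14 (SE, edgeR adjusted p = 0.00183). Per cell, with no scaling to the library, the *in vitro* value of Eef2k was above that of adult, and its calls at 1 week, at 3 weeks and from 1 day to 3 weeks were lost. Eef2kmt, a methyltransferase of eEF2, was not called in any of the 6 comparisons.

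eIF5A helps the ribosome through stretches that stall, such as runs of proline. Eif5a (mm10 chr11:69916714-69921958) stood at 315 and 325 CPM in the adult group, 632 and 677 for *in vitro*, 1231 and 1401 for 1 day, 551 and 563 for 1 week and 644 and 497 for 3 weeks. It rose 4.11-fold at 1 day, by 2.04 ± 0.16 (SE, edgeR adjusted p = 5.93e-06) on the log2 scale, and was higher than adult in every culture. From 1 day to 3 weeks it fell by 1.21 (SE 0.16, edgeR adjusted p = 6.06e-04). Its paralog Eif5a2 lay between 0 and 3.31 CPM in every library and was called higher *in vitro* alone (0.94 ± 0.36 SE, edgeR adjusted p = 0.0474). That call was lost in 13 of 26 alternatives, DESeq2 and leaving out any adult or *in vitro* library among them.

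Factors that set the start codon and join the subunits were split, with the mRNAs Eif1a, Eif1ax and Eif5b higher in all 4 comparisons with adult and Eif1 not called. Eif1 (mm10 chr11:100319885-100322096), whose product keeps the scanning ribosome from starting at wrong codons, stood at 1138 and 1179 CPM in the adult group, 1083 and 1101 for *in vitro*, 1403 and 1319 for 1 day, 1043 and 834 for 1 week and 940.2 and 1032 for 3 weeks. It was called in none of the 6 comparisons, and its log2 fold changes from adult were −0.09 for *in vitro*, 0.23 for 1 day, −0.30 for 1 week and −0.23 for 3 weeks. Eif1b, its close paralog, was not called either. Eif1a and the X-linked Eif1ax both encode eIF1A, which helps the small subunit scan for the start codon. Eif1a stood at 41.8 and 36.3 CPM in the adult group, 64.5 and 73.1 for *in vitro*, 139 and 124 for 1 day, 65.2 and 81.9 for 1 week and 74.1 and 82.3 for 3 weeks. Eif1ax stood at 28.5 and 28.3 CPM in the adult group, 73.1 and 81.6 for *in vitro*, 123 and 147 for 1 day, 54.4 and 61.4 for 1 week and 63.8 and 53.0 for 3 weeks. Both were above adult in all 8 culture libraries, and both were lower at 3 weeks than at 1 day, Eif1ax at a log2 fold change of −1.21 ± 0.15 (SE, edgeR adjusted p = 4.56e-04). Eif5b, the GTPase that joins the large subunit, stood at 79.5 and 60.3 CPM in the adult group, 246 and 246 for *in vitro*, 193 and 199 for 1 day, 144 and 143 for 1 week and 170.1 and 183 for 3 weeks. Its rise was largest *in vitro*, at 1.81 ± 0.16 (SE, edgeR adjusted p = 5.49e-06), and its difference between *in vitro* and slice 3 weeks, 0.48, was not called. Eif5, which makes eIF2 hydrolyse GTP, was called at 1 day alone (0.84) and was lower at 3 weeks than at 1 day (−0.88).

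The eIF2 complex carries the initiator tRNA, eIF2B recharges it, and 4 kinases shut it off under stress. Of the subunits, Eif2s2, the beta subunit, stood at 242 and 258 CPM in the adult group, 356 and 341 for *in vitro*, 529 and 559.7 for 1 day, 372 and 276 for 1 week and 393 and 524 for 3 weeks. It was called higher at 1 day (1.12) and 3 weeks (0.88), and *in vitro* its 0.48 was not called. Eif2s1, the alpha subunit that the kinases phosphorylate, was higher *in vitro* (0.59) and at 1 day (1.17), and not called at 1 week (0.08) or 3 weeks (0.18). The gamma subunit has a copy on each sex chromosome. Eif2s3x stood at 13.6 and 10.4 CPM in the adult group, 19.5 and 18.3 for *in vitro*, 26.2 and 22.7 for 1 day, 27.7 and 28.1 for 1 week and 13.8 and 27.3 for 3 weeks, and it was called higher in all 3 slice groups. Its first library at 3 weeks lay close to the higher adult library, and with the study label as a covariate all 3 calls were lost. Library size alone lost the calls at 1 week and 3 weeks, the replicate block lost that at 3 weeks, and of 26 alternatives 4 lost the call at 1 day, 8 that at 1 week and 11 that at 3 weeks. Eif2s3y had 1 and 0 UMIs in the adult libraries, 926 and 633 in those of *in vitro*, 0 and 767 for 1 day, 0 and 35 for 1 week, and 495 and 0 for 3 weeks. The *in vitro* libraries lay above both adult libraries, and in each slice group 1 library was at 0. Its call at 1 day therefore rests on slice 1 day replicate 2, and it was lost in 10 of 26 alternatives, among them DESeq2 and the replicate block. Eif2s3y counts as 1 of the factors called higher there.

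Of the 5 subunits of eIF2B, 1 was higher at 1 day and 1 lower *in vitro*, beside 24.9% and 28.5% of all genes. Eif2b1 was higher at 1 day (1.13 ± 0.16 SE, edgeR adjusted p = 1.90e-04) and in no other culture. Eif2b4 (mm10 chr5:31187558-31193430) stood at 46.4 and 42.6 CPM in the adult group, 19.4 and 19.3 for *in vitro*, 35.4 and 39.7 for 1 day, 29.6 and 38.4 for 1 week and 35.7 and 28.0 for 3 weeks. It was lower *in vitro* than in adult (−1.20 ± 0.16 SE, edgeR adjusted p = 9.62e-05) and than at slice 3 weeks (−0.71 ± 0.16 SE, edgeR adjusted p = 0.00527), and was not called in the slices. Eif2b2, Eif2b3 and Eif2b5 were called in no comparison with adult. From 1 day to 3 weeks Eif2b1 fell by 1.29 ± 0.16 (SE, edgeR adjusted p = 4.32e-04), and Eif2b2 and Eif2b3 were lower as well, at −0.63 and −0.80. Among the kinases, Eif2ak2, the sensor of double-stranded RNA known as PKR, stood at 23.4 and 21.9 CPM in the adult group, 41.5 and 37.9 for *in vitro*, 22.0 and 21.9 for 1 day, 24.7 and 23.0 for 1 week and 26.0 and 32.9 for 3 weeks. It rose *in vitro* (0.81 ± 0.15 SE, edgeR adjusted p = 0.00106) and was called in no slice group. The *in vitro* call was lost in 2 of 26 alternatives, library size alone and leaving out cells with markers of other types. Eif2ak3, the kinase PERK of the endoplasmic reticulum, was lower at 1 day (−1.18 ± 0.30 SE, edgeR adjusted p = 0.00758), from 11 and 28 UMIs there, a call lost in 5 of 26 alternatives (among them thinned cells and leaving out adult replicate 1 or slice 1 day replicate 2), and called higher at 3 weeks than at 1 day (0.91), a call that the replicate block and DESeq2 did not give. Eif2ak1 and Eif2ak4, which respond to haem and to uncharged tRNA, were called in none of the 6 comparisons. Eif2a, an alternative carrier of initiator tRNA, stood at 54.4 and 56.7 CPM in the adult group, 71.1 and 66.4 for *in vitro*, 61.9 and 59.5 for 1 day, 61.3 and 53.7 for 1 week and 60.0 and 67.4 for 3 weeks. Neither it nor Eif2d, which has a like role, was called in any of the 6 comparisons.

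eIF3, the scaffold that binds the small subunit, is the largest of these complexes. Of its 14 genes 9 were higher *in vitro*, 13 at 1 day, 7 at 1 week and 8 at 3 weeks (64.3%, 92.9%, 50% and 57.1%, beside 22.4%, 24.9%, 15.0% and 17.9% of all genes), and the member not called at 1 day was Eif3j1. Eif3a, the largest subunit, stood at 48.9 and 53.8 CPM in the adult group, 169.8 and 165 for *in vitro*, 149.7 and 156 for 1 day, 108 and 123 for 1 week and 121 and 134 for 3 weeks. Eif3e stood at 124 and 126 CPM in the adult group, 204 and 215 for *in vitro*, 236 and 249 for 1 day, 292 and 284 for 1 week and 186 and 262 for 3 weeks. Eif3f (mm10 chr7:108934417-108942951), a core subunit, stood at 274 and 244 CPM in the adult group, 512 and 559 for *in vitro*, 444 and 446 for 1 day, 646 and 629 for 1 week and 516 and 780.2 for 3 weeks. None of these overlapped with adult in any culture. Eif3h, which pairs with Eif3f in the complex, stood at 181 and 167 CPM in the adult group, 374 and 405 for *in vitro*, 296 and 308 for 1 day, 420.0 and 348 for 1 week and 323 and 428 for 3 weeks. Eif3i stood at 78.9 and 67.8 CPM in the adult group, 157 and 178 for *in vitro*, 220.4 and 223 for 1 day, 199.6 and 143 for 1 week and 151 and 177 for 3 weeks. Eif3k stood at 167 and 164 CPM in the adult group, 354 and 392 for *in vitro*, 315 and 309.8 for 1 day, 349.8 and 376 for 1 week and 299 and 413 for 3 weeks. All 3 were above adult in all 8 culture libraries. Eif3m stood at 101 and 92.3 CPM in the adult group, 159 and 168 for *in vitro*, 185 and 197 for 1 day, 171 and 194 for 1 week and 142 and 181 for 3 weeks. Its last 300 bases share 34.3% of 50-base stretches with another gene, and its log2 fold changes from adult were 0.76 for *in vitro*, 0.98 for 1 day, 0.91 for 1 week and 0.74 for 3 weeks. Such sharing was 35.7% for Eif2s3x, 34.7% for Eif2s2, 25.8% for Eif1, 23.7% for Eif4a2, 22.5% for Eef1b2 and 20.3% for Eef1d. Their counts are uncertain in the same way. Eif3b, Eif3d, Eif3g and Eif3l were called at 1 day, at 1.12, 0.83, 0.72 and 1.00, and none of them at 1 week or 3 weeks. Eif3c was called *in vitro*, at 1 day and at 3 weeks.

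Of the genes of the loosely bound subunit eIF3j, Eif3j2 was lower *in vitro* than in adult. The subunit is encoded by Eif3j1 (mm10 chr2:122028546-122056598) and Eif3j2. Eif3j1 stood at 104 and 90.0 CPM in the adult group, 66.5 and 63.4 for *in vitro*, 143 and 141 for 1 day, 63.2 and 71.6 for 1 week and 86.4 and 131 for 3 weeks. It was called only between *in vitro* and slice 3 weeks, at −0.75 ± 0.19 (SE, edgeR adjusted p = 0.00984). Eif3j2 stood at 10.6 and 7.34 CPM in the adult group, 4.56 and 3.14 for *in vitro*, 14.9 and 19.2 for 1 day, 11.9 and 15.3 for 1 week and 8.93 and 14.2 for 3 weeks. It was lower than adult *in vitro*, at −1.24 ± 0.30 (SE, edgeR adjusted p = 0.00504), higher at 1 day, at 0.92 ± 0.30 (SE, edgeR adjusted p = 0.024), and lower *in vitro* than at slice 3 weeks, at −1.61 ± 0.29 (SE, edgeR adjusted p = 0.00194). Eif3j2 was the only factor called in both directions against adult, but the 1 day call was lost in 6 of 26 alternatives (among them the study label as a covariate, thinned cells, and leaving out cycling cells, adult replicate 2 or slice 1 day replicate 2) and the *in vitro* call without adult replicate 1 or *in vitro* replicate 2. The copies share sequence, with 80.1% of the 50-base stretches in the last 300 bases of Eif3j2 also in Eif3j1, so how their reads were split is uncertain.

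Of the cap-binding complex eIF4F and its partners, 3 of 10 genes were higher *in vitro*, 7 at 1 day, 2 at 1 week and 3 at 3 weeks, beside 22.4%, 24.9%, 15.0% and 17.9% of all genes. Lower calls numbered 1, 2, 1 and 0, of which Eif4e3, a cap-binding paralog of Eif4e named after its values were seen, was the other beside Eif4a2 at 1 day (−0.63), and its call was lost in 13 of 26 alternatives, among them DESeq2 and leaving out either slice 1 day library. The eIF4A helicases were called in opposite directions at 1 day. Eif4a1 (mm10 chr11:69666936-69672423), which unwinds the leader of an mRNA, stood at 663 and 828 CPM in the adult group, 899.9 and 892 for *in vitro*, 1756 and 2006 for 1 day, 839 and 959.5 for 1 week and 1115 and 787 for 3 weeks. It was called at 1 day alone, 2.52-fold above adult at a log2 fold change of 1.33 ± 0.19 (SE, edgeR adjusted p = 2.46e-04), and fell from 1 day to 3 weeks by 0.98 ± 0.19 (SE, edgeR adjusted p = 0.00425). Eif4a2 (mm10 chr16:23107444-23114136), its close paralog, stood at 252 and 182 CPM in the adult group, 147 and 133 for *in vitro*, 112 and 97.6 for 1 day, 126 and 120.3 for 1 week and 127 and 197 for 3 weeks. It was lower than adult *in vitro*, at −0.63 ± 0.22 (SE, edgeR adjusted p = 0.0281), at 1 day, at −1.05 ± 0.22 (SE, edgeR adjusted p = 0.00236), and at 1 week, at −0.82 ± 0.24 (SE, edgeR adjusted p = 0.0248). Its 3 weeks libraries lay on either side of the lower adult library, and it was not called there. The call of Eif4a2 *in vitro* was lost in 19 of 26 alternatives, among them DESeq2, other scalings and leaving out adult replicate 1 or either *in vitro* library. Its call at 1 week was lost in 7, among them thinned cells and leaving out adult replicate 1 or either library of that group, and that at 1 day was lost on counts per cell alone. Per cell all 3 of its values were above 0. Eif4b, the helicase cofactor on the terminal oligopyrimidine list, stood at 31.7 and 24.3 CPM in the adult group, 76.0 and 75.9 for *in vitro*, 61.1 and 57.2 for 1 day, 84.0 and 53.7 for 1 week and 52.8 and 79.9 for 3 weeks. Eif4e2, a cap-binding protein that represses translation, stood at 88.3 and 94.0 CPM in the adult group, 130.4 and 144 for *in vitro*, 186 and 190.3 for 1 day, 176 and 123 for 1 week and 144 and 149.8 for 3 weeks. Both were above adult in all 8 culture libraries, and the call of Eif4e2 *in vitro* was lost in 5 of 26 alternatives. Eif4e, the cap-binding protein itself, was called at 1 day alone (1.06), and was lower at 3 weeks than at 1 day (−0.88). The scaffolds Eif4g1 and Eif4g2 were called at 1 day (0.64 and 0.97), Eif4g1 also at 3 weeks and Eif4g2 also *in vitro*, and Eif4g3 in none of the 6 comparisons. Of 26 alternatives, 4 lost the call of Eif4g1 at 1 day, 2 that at 3 weeks, and 5 that of Eif4g2 *in vitro*. Eif4a3, a helicase of the exon junction complex and not of initiation, stood at 98.7 and 84.2 CPM in the adult group, 82.2 and 84.3 for *in vitro*, 113 and 123 for 1 day, 85.0 and 89.5 for 1 week and 90.9 and 79.4 for 3 weeks. It was called in none of the 6 comparisons.

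Eif4ebp1 (mm10 chr8:27260329-27276674) had the largest rise of all factors at 1 day, Eif2s3y aside, though that of Eef1g lay within its SE. Eif4ebp1 encodes a protein that holds eIF4E away from eIF4G until mTORC1 phosphorylates it. It stood at 50.8 and 59.1 CPM in the adult group, 115 and 121 for *in vitro*, 273 and 262 for 1 day, 247 and 174 for 1 week and 162 and 209.7 for 3 weeks. All 8 culture libraries lay above both adult libraries, and the log2 fold changes were 1.1 ± 0.19 (SE, edgeR adjusted p = 5.67e-04) *in vitro*, 2.28 ± 0.19 (SE, edgeR adjusted p = 8.41e-06) at 1 day, 1.96 ± 0.20 (SE, edgeR adjusted p = 8.38e-05) at 1 week and 1.76 ± 0.19 (SE, edgeR adjusted p = 7.73e-05) at 3 weeks. It was lower *in vitro* than at slice 3 weeks, by 0.66 ± 0.18 (SE, edgeR adjusted p = 0.0166), a call lost in 7 of 26 alternatives, among them leaving out either *in vitro* library. The other repressors Eif4ebp2 and Eif4enif1 were called in none of the 6 comparisons. Eif6, which keeps the large subunit from joining too early and takes part in its making, stood at 107 and 120.0 CPM in the adult group, 140.2 and 149 for *in vitro*, 215 and 237 for 1 day, 136 and 118 for 1 week and 127 and 106 for 3 weeks. It was called at 1 day alone, at 1.00 ± 0.15 (SE, edgeR adjusted p = 3.14e-04), with 0.04 at 3 weeks. Also chosen by symbol were Eef1e1, a scaffold of the aminoacyl-tRNA synthetases, and Eif1ad, a nuclear protein with an eIF1A domain. Eef1e1 stood at 39.2 and 37.5 CPM in the adult group, 41.5 and 43.7 for *in vitro*, 101 and 109.8 for 1 day, 38.5 and 15.3 for 1 week and 43.7 and 47.3 for 3 weeks. Both were called at 1 day alone, at 1.46 and 1.43, and both were lower at 3 weeks than at 1 day.

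Between the time points of slice culture, more factors were lower at 3 weeks than were higher. Of the 61, 18 were lower, where 12.8% of all genes tested were called lower, and 2 were higher, where 13.9% were, with a median log2 fold change of −0.36 beside 0.05 for all genes. The 80 ribosomal protein genes had 1 call in each direction and a median of 0.13. The 2 factors called higher were Eef2k and Eif2ak3, and the call of Eif2ak3 was lost in 15 of 26 alternatives, among them DESeq2, library size alone, the study label as a covariate and the replicate block. Of the 12 factors called higher at 1 day and in no other comparison with adult, Eif2s3y aside, 9 were among the 18 called lower (Eef1d, Eef1e1, Eif1ad, Eif2b1, Eif3g, Eif4a1, Eif4e, Eif5 and Eif6). They were picked for being high in the same 1 day libraries, and of all 565 genes picked that way 59.6% were called lower, beside 75.0% of the factors. The terminal oligopyrimidine list had 2 members called lower, Eef1d and Eef1g, and a median of 0.17, and the 52 others had 16 that fell and a median of −0.39. Leaving out each library in turn gave 15 to 22 factors lower and 1 to 5 higher. Without neutrophil cells 19 were lower and 3 higher, and without cycling cells 18 were lower and 4 higher (12.3% and 13.1% of all genes). Without cells with markers of other types, which left 1 library at 1 day, 1 was lower and 0 were higher, and 19 of the 20 calls were lost, in a setting where 0.499% of all genes were called lower and 0.831% higher.

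**Figure D4:**
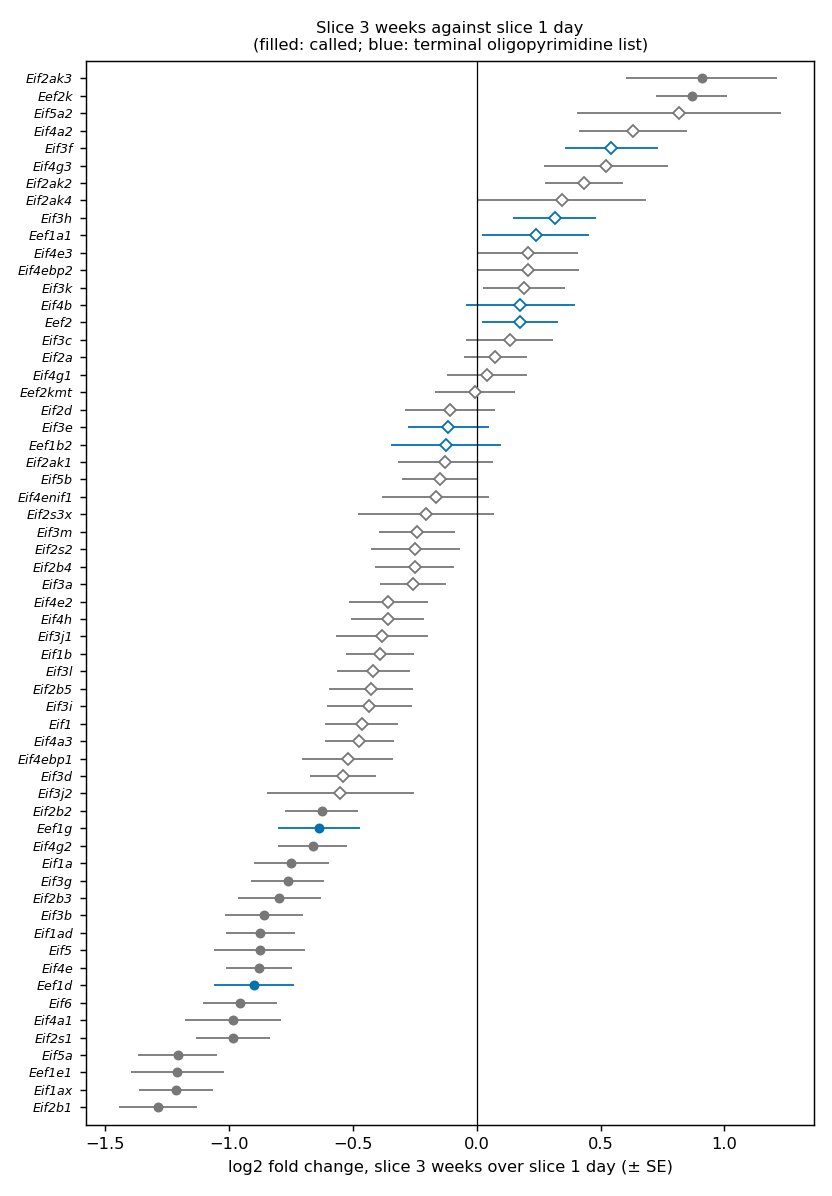
log2 fold change from slice 1 day to slice 3 weeks for 60 factors (Eif2s3y left out), with SE bars, in order of size. Filled points are called and blue marks the terminal oligopyrimidine list. The lowest value is that of Eif2b1 (−1.29), and the 2 called higher are Eif2ak3 (0.91) and Eef2k (0.87).

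*In vitro* and slice 3 weeks microglia were compared last. No factor was called higher *in vitro* by edgeR (0 of 61, beside 13.3% of all genes tested), with 7 at an unadjusted p under 0.05 and 0 called by DESeq2, and 4 were called lower (19.9% of all genes): Eif3j2, Eif3j1, Eif2b4 and Eif4ebp1, described above. The call of Eif3j2 was lost in 2 of 26 alternatives and those of the other members in 5 to 7. The median log2 fold change was 0.02, beside −0.10 for all genes and −0.34 for the ribosomal proteins, of which 1 was higher and 7 lower. With no fold threshold, 6 factors were higher (16.4% of all genes). Leaving out 1 library gave 0 to 6 factors higher and 1 to 4 lower. The counts were 5 and 6 higher without slice 3 weeks replicate 1 and 2, and 1 lower without either *in vitro* library. Per cell, 50 factors were higher *in vitro* (52.7% of all genes) and 0 lower (5.54%), on a scale where the median of all genes was 0.97. Factors called higher than adult *in vitro* and not at 3 weeks were Eif2ak2, Eif2s1, Eif3b, Eif4g2 and Eif5a2, and those at 3 weeks and not *in vitro* were Eif2s2, Eif2s3x and Eif4g1. None of these was called between *in vitro* and slice 3 weeks.

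Other genes of the pathway were taken from a list of 34 symbols, 33 of them tested, that hold mTORC1 and its regulators, poly(A)-binding proteins, enzymes that modify eIF5A, and release and recycling factors, none with the symbols used above. Of these, 4 were higher and 9 lower than adult *in vitro* (12.1% and 27.3%, beside 22.4% and 28.5% of all genes), and 13 higher and 7 lower at 1 day (39.4% and 21.2%, beside 24.9% and 25.3%). For 1 week the counts were 4 and 6 (12.1% and 18.2%, beside 15.0% and 13.6%), and for 3 weeks 6 and 5 (18.2% and 15.2%, beside 17.9% and 17.5%). Most of these shares were near those of all genes, and the medians were −0.18, 0.26, 0.04 and −0.03. The 3 largest changes among called genes of the list were falls. Ddit4, an inhibitor of mTORC1 induced by stress, was at −3.57 ± 0.39 (SE, edgeR adjusted p = 2.98e-05) *in vitro* and −2.84 ± 0.39 (SE, edgeR adjusted p = 3.56e-04) between *in vitro* and slice 3 weeks. Pdcd4, which blocks eIF4A, was at −2.98 ± 0.25 (SE, edgeR adjusted p = 7.74e-06) at 1 day and rose from 1 day to 3 weeks by 1.76 ± 0.25 (SE, edgeR adjusted p = 9.16e-04). Rptor, the substrate-binding subunit of mTORC1, was lower than adult in all 4 cultures, with log2 fold changes of −2.30 *in vitro*, −2.0 at 1 day, −1.47 at 1 week and −1.05 at 3 weeks.

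Factor and ribosomal protein UMIs were also compared cell by cell within each library. Over 52 to 3689 cells a library, each thinned to 1800 UMIs, Spearman's rho between the summed UMIs of the factors and of the ribosomal proteins was 0.22 and 0.14 in adult, 0.34 and 0.35 for *in vitro*, 0.52 and 0.53 for 1 day, 0.76 and 0.50 for 1 week, and 0.28 and 0.53 at 3 weeks. Without Eef1a1 it was 0.11 and 0.07 in adult and 0.44 and 0.48 at 1 day. Cells of a library are not replicates and share its depth and its mix of cells, neutrophils among them, so these values are a description. The median cell held 125 and 102 ribosomal protein UMIs in adult and 277.5 and 288.5 at 1 day. Low counts limit rho, and the part of this in the order of the groups was not tested. The median cell held 17 and 16 factor UMIs of 1800 in adult, 21 and 21 for *in vitro*, 28 and 31 for 1 day, 23 and 23 for 1 week, and 21 and 25 at 3 weeks. At 1 day, cells with cell cycle markers had a mean of 34.1 and 33.1 factor UMIs and other cells 27.2 and 28.9, and *in vitro* these were 22.4 and 23.3 against 20.8 and 20.9. In adult, where 15 and 9 cells had such markers, they were 19.1 and 19.2 against 16.8 and 16.5. At 1 week, with 23 and 11 such cells, they were 24 and 23.9 against 23.3 and 24.8, and at 3 weeks 21.8 and 25.0 against 22.0 and 25.5. Cells with cell cycle markers had the higher mean in both libraries of adult, *in vitro* and 1 day, and not in both of 1 week or 3 weeks. The part of cycling cells in the 1 day level was not tested.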

How the data were processed

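Droplet 3′ libraries (10X Genomics v2) of sorted microglia were analysed, 2 per group in 5 groups. The deposited tables hold raw UMI counts per gene and cell, which the authors made with Cell Ranger 1.3.0 on mm10, per the submitters' processing notes. The gene annotation and the assignment of strand are not given in the sources used here. The limits of the study on cells were applied here (at most 5% mitochondrial UMIs, at least 400 genes, at most 30000 UMIs), which removed 578 of 19637 barcodes. Its outlier discrimination by t-SNE was not repeated, so the cells kept differ from those of the study. No doublet caller was run. Counts were summed per library. Genes were kept by filterByExpr (min.count 10), scaled by TMM and tested with edgeR 4.0.16 (glmQLFit and glmQLFTest, R 4.3.3) in 1 model of 5 groups, with Benjamini-Hochberg adjustment over 12157 genes. A call needed an adjusted p under 0.05 and a fold over 1.5. The biological coefficient of variation was 18.3%. Library totals of 385373 to 39689540 UMIs set the precision, and slice 1 week is the least precise group.

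The members, the lists and the rule for values in every library were chosen with earlier results of these data known. That rule took the most abundant member of each role, members called one way in all 4 comparisons with adult or both ways, those called between *in vitro* and slice 3 weeks, and 3 paralog pairs. Alternatives were DESeq2 1.42.0, other scalings, filters, designs and subsets of cells, and leaving out each library. Leaving out neutrophil cells was chosen after seeing the data. A further microglia marker of the planned list is not reported here. Positions are from GENCODE M21 (GRCm38) and sequences from RefSeq.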

Additional observations from a re-analysis of the deposited data

How the results depend on the processing

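Of 104 gene results, DESeq2 kept 102, size factors of DESeq2's kind 103, TMM without ribosomal genes 103, library size alone 94, thinned cells 95 and no filter on low counts 102 on their side of the threshold and in their direction, and the rest kept their direction. Counts per cell kept 91, with 9 reversed, and leaving out cells with markers of other types kept 61, with 1 reversed. Of 139 calls, 59 were lost in none of 26 alternatives and 16 in 5 or more. Library size alone gave 14 higher and 7 lower *in vitro*, 5 lower at 1 week and 5 lower at 3 weeks. From 1 day to 3 weeks it gave 1 higher, where 11.8% of all genes were. Counts per cell gave 60 higher and 0 lower *in vitro*, 1 lower at 1 day, 51 higher and 0 lower at 1 week, 52 higher and 0 lower at 3 weeks, 50 higher and 0 lower *in vitro* against 3 weeks, and 0 higher from 1 day to 3 weeks. On that scale, where the median of all genes was above 0 in these comparisons, log2 values changed sign for Eef2k (0.62), Eif2b4 (0.96), Eif3j2 (0.88) and Eif4a2 (1.49) *in vitro*, for Eif4a2 at 1 day (0.43) and 1 week (0.32), and *in vitro* against 3 weeks for Eif2b4 (0.35), Eif3j1 (0.35) and Eif4ebp1 (0.43). Thinned cells gave 2 lower at 1 day, 1 lower at 1 week and 1 higher *in vitro* against 3 weeks (19.7%, 6.95% and 13.8% of all genes). With no fold threshold 2 were lower at 3 weeks and 6 higher *in vitro* against 3 weeks (20.2% and 16.4% of all genes). The latter was 1 with no filter on cells, with no filter on low counts, with study label as a covariate and without cycling cells, which gave 4 higher from 1 day to 3 weeks. With only the larger study label, 1 was lower at 1 week, 2 lower at 3 weeks, 1 higher and 7 lower *in vitro* against 3 weeks, and 5 higher from 1 day to 3 weeks. A fit of only the groups compared gave 1 higher there (9.23% of all genes). Except where a value shows it, the cause was not tested.

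Without cells with markers of other types, which left 8 libraries and only 42 and 38 *in vitro* cells, 2 were lower *in vitro*, 19 higher and 2 lower at 1 day, 6 higher and 1 lower at 1 week, 1 higher and 0 lower *in vitro* against 3 weeks, and 0 higher and 1 lower from 1 day to 3 weeks. The Eif2s3y log2 fold change, slice 1 day against adult, rests on a group at or near 0 UMIs and was −1.74 in that setting and −2.54 to 12.08 with a library left out, the lowest without slice 1 day replicate 2 and the highest without adult replicate 1.

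Replicate numbers did not pair the libraries, since correlations of same-numbered deviations ran from −0.112 to 0.0941. With the replicate block, 1 factor was higher from 1 day to 3 weeks (12.9% of all genes), with the call of Eif2ak3 lost, and 102 of 104 gene results held.

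Leaving out each library in turn gave 23 to 30 higher and 2 to 5 lower *in vitro*, 36 to 41 and 2 to 4 at 1 day, 17 to 21 and 1 to 2 at 1 week, 22 to 25 and 1 to 3 at 3 weeks, 0 to 6 and 1 to 4 *in vitro* against 3 weeks, and 1 to 5 and 15 to 22 from 1 day to 3 weeks. Lower counts fell to 2 *in vitro* and at 1 day without adult replicate 1, to 2 *in vitro* without *in vitro* replicate 2, to 2 at 1 day without slice 1 day replicate 2, and to 1 at 1 week without adult replicate 1 or either library of that group. At 3 weeks they were 2 and 3 without slice 3 weeks replicate 1 and 2. Depth limits slice 1 week, where a library held 61 cells.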
